A study of Mus musculus with 12 samples.

Results

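The 10 genes that make prostaglandins and leukotrienes from arachidonic acid were followed in lesions of the mouse spinal cord: Pla2g4a, Ptgs1, Ptgs2, Ptgds, Hpgds, Ptges, Alox5, Alox5ap, Alox15 and Ltc4s. They were chosen by symbol, with earlier results of these data known, and each matched 1 of the 46078 genes in the count table. Ventrolateral spinal cord white matter of C57Bl6 mice was collected by laser capture microdissection, which cuts a small region out of a tissue section under the microscope, and its RNA was amplified and sequenced on an Illumina NextSeq500. The 4 groups were young naïve (6 weeks of age), middle-aged naïve (8 months), young injured and middle-aged injured, and each had 3 libraries. Naïve mice carried no lesion, and injured tissue was taken 72 h (day 3) after lysolecithin, a lipid detergent that strips myelin, was injected into the same white matter. Each library pooled the tissue of 5 mice, and single mice were not measured. The ages come from the methods for this sequencing, since the labels name the groups without a number.

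Prostaglandins and leukotrienes are short-lived lipid signals of inflammation, pain, fever and vascular tone. Cytosolic phospholipase A2, encoded by Pla2g4a, frees arachidonic acid from membranes, and the cyclooxygenases encoded by Ptgs1 and Ptgs2 turn it into prostaglandin H2. Terminal synthases then make the separate prostaglandins: Ptgds and Hpgds encode the lipocalin-type and the hematopoietic synthase of prostaglandin D2, and Ptges encodes the microsomal synthase of prostaglandin E2. On the other branch, 5-lipoxygenase (Alox5) and its activating protein (Alox5ap) make leukotriene A4, which Ltc4s converts to leukotriene C4, and Alox15 encodes a lipoxygenase that oxygenates arachidonic acid at other carbons. In the nervous system the lipocalin-type synthase is known from oligodendrocytes and the meninges, and most of the leukotriene genes from myeloid cells.

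The members are all protein-coding and lie on 5 chromosomes of the genome build GRCm38. Ptgs2 (ENSMUSG00000032487, chr1:150100031-150108227, plus strand) and Pla2g4a (ENSMUSG00000056220, chr1:149829618-149961290, minus strand) lie near each other on chromosome 1. Chromosome 2 holds Ptgs1 (ENSMUSG00000047250, chr2:36230426-36252272, plus strand), Ptgds (ENSMUSG00000015090, chr2:25466709-25470046, minus strand) and Ptges (ENSMUSG00000050737, chr2:30889471-30929863, minus strand). Hpgds (ENSMUSG00000029919, chr6:65117293-65144908) and Alox5 (ENSMUSG00000025701, chr6:116410077-116461178) lie on the minus strand of chromosome 6, and Alox15 (ENSMUSG00000018924, chr11:70344152-70352031) and Ltc4s (ENSMUSG00000020377, chr11:50236461-50238616) on the minus strand of chromosome 11. Alox5ap (ENSMUSG00000060063, chr5:149264767-149288153) is on the plus strand of chromosome 5. Exons of Ptgs1, Alox5ap and Ltc4s share 148, 189 and 268 bases with genes on the opposite strand (Gm43621, Gm19719 and Gm26542). The strand setting of the counting is not given in the sources used here, so reads from those stretches cannot be told apart between the partners.

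RefSeq promoter windows on GRCm38.p6, from 250 bases before to 50 bases after the start of a transcript, were at hand for 8 of the 10 members, with no window for Alox5ap and Alox15. The windows of Ptgs1, Ptgs2 and Hpgds are shown because these genes rose after injury and their windows hold a motif named for factors of myeloid cells and inflammation. The capitals mark GAGGAAGT, a PU.1-type motif, in Ptgs1 and Hpgds, and TTGCNNAA, a C/EBP-type motif, in Ptgs2. The Ptgs1 stretch is the 250 bases before the start (chr2:36230176-36230425, plus strand), and so is that of Ptgs2 (chr1:150099781-150100030, plus strand), which in part overlaps exons of the antisense gene Ptgs2os. For Hpgds 30 bases are shown (chr6:65144761-65144790, minus strand), since GENCODE starts the gene further upstream and places this stretch in its first, untranslated exon.
Ptgs1: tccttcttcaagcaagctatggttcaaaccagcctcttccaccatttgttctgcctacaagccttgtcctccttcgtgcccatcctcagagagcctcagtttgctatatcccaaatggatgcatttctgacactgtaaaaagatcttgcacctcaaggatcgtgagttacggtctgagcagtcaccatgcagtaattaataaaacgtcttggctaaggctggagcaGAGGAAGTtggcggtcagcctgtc
Ptgs2: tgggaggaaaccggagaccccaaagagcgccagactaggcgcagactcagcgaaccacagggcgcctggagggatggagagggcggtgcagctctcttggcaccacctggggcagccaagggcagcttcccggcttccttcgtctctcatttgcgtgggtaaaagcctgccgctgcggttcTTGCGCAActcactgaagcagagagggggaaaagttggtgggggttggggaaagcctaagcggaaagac
Hpgds: gcttttaggtgGAGGAAGTggcctctggct

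The GAGGAAGT matches began 24 bases before the RefSeq start of Ptgs1 and 49 bases before that of Hpgds. Searched on both strands, these letters occur in 3.20% of all 32851 windows, and among the members in these 2 genes. TTGCNNAA occurs in 10.8% of windows and matched Ptgs2 at 69 bases and Hpgds at 176 bases before the start. The motif TGANTCA (AP-1-type, 7.81% of windows) was found in Ptgds, 35 bases before the start, and TGACGT (a cyclic AMP response half-site, 7.51%) and CACGTG (an E-box, 7.15%) in Ptgs2 at 13 and 17 bases after the start, where they overlap. The motifs were picked after the sequences had been seen, and a match of letters is a description that says nothing about binding.

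The total count of a pool was between 9834447 and 12807437, which puts a floor of 3 counts at 0.234 to 0.305 CPM, a gene's count relative to the library total. Levels below are CPM with TMM factors, and differences are log2 fold changes from edgeR's quasi-likelihood test over all 12 pools, with p-values adjusted by the Benjamini-Hochberg method over 15866 genes and called under 0.05. The tissue labelled white matter carried the oligodendrocyte markers Mbp, Mog, Mag, Mobp and Cnp, whose summed level was between 40031 and 44129.6 CPM in young naïve and between 26885.5 and 32588 CPM in middle-aged naïve pools. These 5 genes all fell after injury at both ages, with summed levels of 10259.6 to 10431 CPM in young injured and 4556 to 7097 CPM in middle-aged injured pools. The 8 pan-myeloid markers (such as Aif1, Itgam and Csf1r) all rose, from 95.0 to 131 CPM in young naïve and 145 to 218 CPM in middle-aged naïve pools to between 1855 and 1893 CPM in young injured and between 1881 and 2455 CPM in middle-aged injured pools. In bulk tissue, fewer cells of a type and less RNA per cell cannot be told apart, and the part of cell composition in the values below was not tested.

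Injury changed 7 of the 8 members tested, each of them at both ages. Of the 8 members that passed the filter on low counts, Ptgs1, Ptgs2, Hpgds, Ptges, Alox5 and Alox5ap rose in young and in middle-aged mice, Ptgds fell in both, and Pla2g4a was not called in either. Of all genes tested, 54.6% were called in young and 58.5% in middle-aged mice. These were 28.3% higher and 26.3% lower in young mice, and 29.2% and 29.3% in middle-aged mice, so that a call by itself was common in this tissue. The median log2 fold change of the 8 members was 2.38 in young and 2.24 in middle-aged mice, beside 0.00054 and -0.032 over all genes tested. Ptgs2 passed the filter only through its injured pools, as 2 of its 6 naïve pools reached the level the filter asks. Alox15 and Ltc4s were too low in all groups to pass it.

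**Figure D1:**
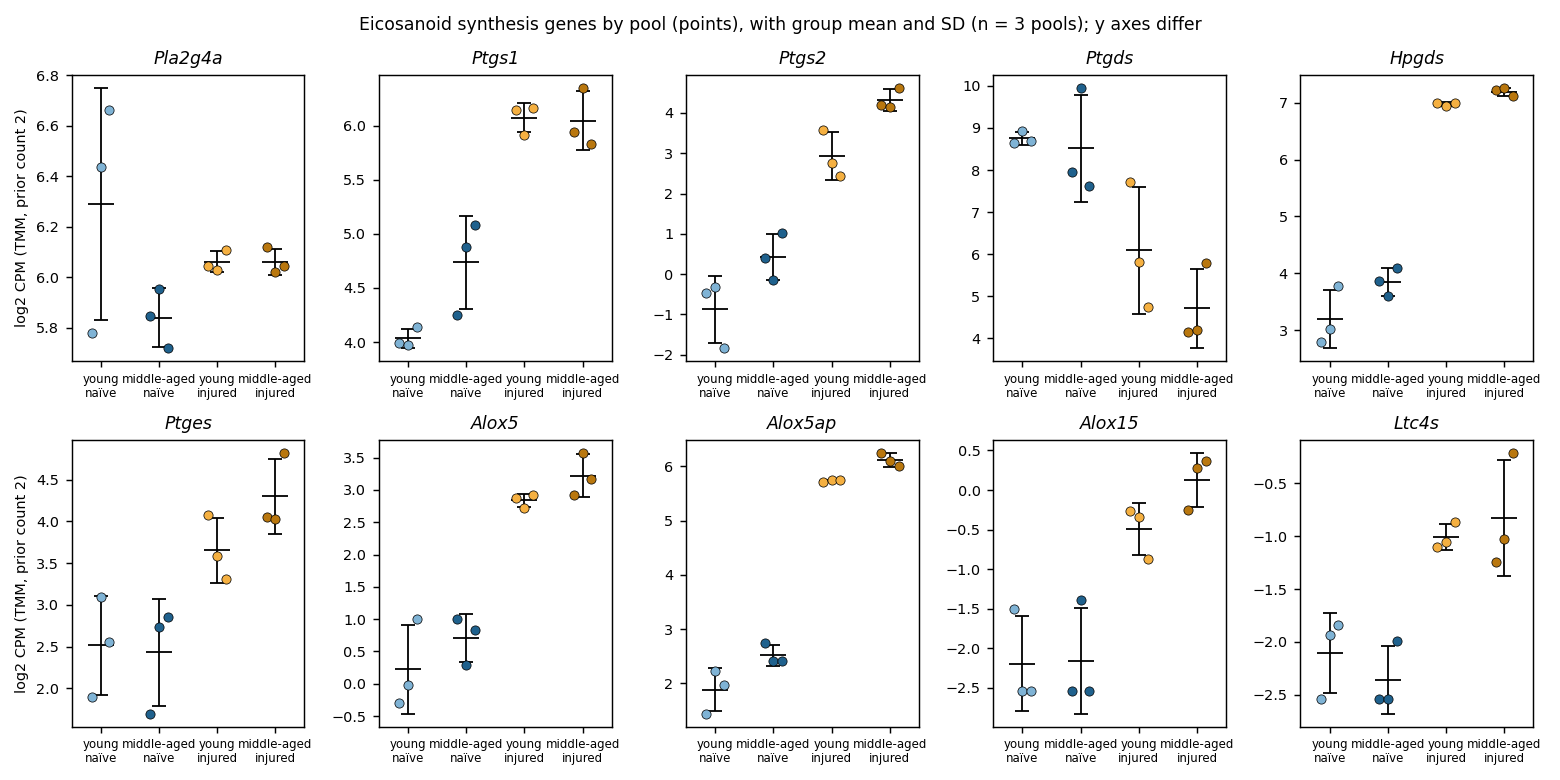
Levels of the 10 members in every pool, as log2 CPM (TMM-scaled, prior count of 2, y axis) by group (x axis), with the y axis set separately for each gene. Points are the 3 pools of a group and bars give the mean and SD. Hpgds and Alox5ap stand in narrow bands after injury, Ptgds is the only panel in which all injured pools lie below the naïve pools of their age, and the pools of Pla2g4a stay within 5.72 and 6.66 on the log2 scale.

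The release step showed no call. Pla2g4a had 600, 954 and 940 counts in young naïve, 598, 589 and 656 in middle-aged naïve, 898, 840 and 914 in young injured and 835, 811 and 762 in middle-aged injured pools. Young naïve replicate 1 lay apart from the other young naïve pools, and the mean level there was 80.7 ± 23.7 CPM (SD, n = 3), against 66.6 ± 1.95 CPM in young injured pools. The log2 fold change was -0.28 ± 0.17 (SE, adjusted p = 0.194) in young mice, whereas that of middle-aged mice was 0.22 ± 0.17 (adjusted p = 0.295). Without young naïve replicate 1 the difference in young mice was called at -0.49 (adjusted p = 0.00569).

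Both cyclooxygenases rose. Ptgs1, often described as the constitutive enzyme, had 162 to 173 counts in young naïve and 197 to 421 in middle-aged naïve pools, and 778 to 959 and 659 to 1021 counts in young and middle-aged injured pools. Its level went from 16.2 ± 1.04 to 67.4 ± 6.18 CPM in young mice (4.16-fold, log2 fold change 2.06 ± 0.20, adjusted p = 9.65e-07), and from 27.3 ± 7.57 to 66.6 ± 13.1 CPM in middle-aged mice (2.44-fold, 1.29 ± 0.20, adjusted p = 5.67e-05). The naïve pools of the ages did not overlap, whereas the injured pools did.

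Ptgs2, the inducible cyclooxygenase, was close to the floor in naïve tissue. Its counts were 6, 7 and 1 in young naïve and 12, 7 and 23 in middle-aged naïve pools, then 161, 85 and 70 in young injured and 218, 221 and 285 in middle-aged injured pools. In CPM each group lay above the group before it with no overlap of pools, although the naïve pools came close, with 0.635 CPM in young naïve replicate 2 and 0.735 CPM in middle-aged naïve replicate 2 from 7 counts each. The rise was 17.4-fold in young (log2 fold change 4.12 ± 0.48, adjusted p = 4.89e-06) and 15.7-fold in middle-aged mice (3.97 ± 0.41, adjusted p = 1.29e-06), and the young value rests on few counts in the naïve pools. Per exon length, Ptgs2 stood at between 0.00523 and 0.0517 of the level of Ptgs1 in the naïve pools. That ratio was 0.142, 0.0927 and 0.0625 in young injured and 0.250, 0.184 and 0.367 in middle-aged injured pools, so Ptgs1 remained the higher transcript of the pair in every pool.

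The synthases of prostaglandin D2 moved in opposite directions. Ptgds had 4415, 5402 and 3841 counts in young naïve and 2597, 9501 and 2459 in middle-aged naïve pools, against 2873, 722 and 351 in young injured and 210, 226 and 643 in middle-aged injured pools. Every injured pool was below every naïve pool of its age in CPM, but the spread inside groups was wide. The mean level fell from 435 ± 47.7 to 97.8 ± 99.1 CPM in young mice (log2 fold change -2.15 ± 0.71, adjusted p = 0.0189), and from 481 ± 448 to 30.3 ± 21.8 CPM in middle-aged mice (-3.99 ± 0.77, adjusted p = 0.000487). The call in young mice was lost without young injured replicate 2 (-1.87, adjusted p = 0.0768) or replicate 3 (-1.70, adjusted p = 0.0651), and the size was -3.40 without replicate 1. In middle-aged mice the size depended on naïve replicate 2, without which it was -2.88 (adjusted p = 0.00126), and on injured replicate 3, without which it was -4.75.

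Values of other cell types lay beside those of Ptgds. The 5 oligodendrocyte markers fell with a median log2 fold change of -2.03 in young and -2.34 in middle-aged mice. The summed level of 6 markers of meningeal fibroblasts (Dcn, Lum, Col1a1, Col1a2, Slc47a1 and Igf2) was 89.9 to 114 CPM in young naïve and 83.5 to 162 CPM in middle-aged naïve pools, and 696 to 1144 CPM in young injured and 301 to 569 CPM in middle-aged injured pools. The 5 tested (all but Slc47a1) rose in young mice. In middle-aged mice 4 rose and Igf2 fell (-1.48 ± 0.33, adjusted p = 0.00155), so the sum does not follow every marker. Middle-aged naïve replicate 2, with 997 CPM of Ptgds against 249 and 197 CPM in the other pools of its group, also had the highest fibroblast sum of the naïve pools, at 162 CPM. Young injured replicate 1, with 211 CPM of Ptgds against 56.0 and 26.4 CPM, had the highest such sum of all pools, at 1144 CPM, but replicate 2, with 56.0 CPM of Ptgds, had nearly as high a sum of 1073 CPM. In the middle-aged injured group, replicate 3 had the most Ptgds (55.5 CPM against 17.4 and 18.0 CPM), the lowest fibroblast sum (301 CPM) and the highest oligodendrocyte sum (7097 CPM). The part of these cell types in the levels of Ptgds was not tested.

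The injured pools of Hpgds lay close together. The gene had 74, 88 and 126 counts in young naïve, 149, 114 and 212 in middle-aged naïve, 1732, 1581 and 1698 in young injured and 1790, 1906 and 1599 in middle-aged injured pools. The level rose from 9.42 ± 3.63 to 125.9 ± 2.88 CPM in young mice (13.4-fold, log2 fold change 3.75 ± 0.21, adjusted p = 4.49e-09), and from 14.4 ± 2.50 to 146.3 ± 7.35 CPM in middle-aged mice (10.1-fold, 3.34 ± 0.21, adjusted p = 8.02e-09). Hematopoietic prostaglandin D synthase is also known from mast cells, and the 6 mast cell markers summed to 9.34 CPM in middle-aged naïve replicate 2 and to at most 1.29 CPM in the other pools. Of these, Tpsb2, Cma1, Mcpt4 and Fcer1a had 0 counts in all 12 pools, and Cpa3 had 0 counts in the naïve and 0 to 4 counts in the injured pools. Hdc, the histidine decarboxylase, was the only one to pass the filter, with 7 to 89 counts in the naïve and 1 to 9 in the injured pools. It had a log2 fold change of -0.52 ± 0.88 (adjusted p = 0.645) in young mice and fell in middle-aged mice (-3.83 ± 0.94, adjusted p = 0.00277). Hdc passed the filter only through its naïve pools, so the filter favoured a call of a fall. The middle-aged naïve sums, all from Hdc, were 1.25, 9.34 and 0.640 CPM, so 1 pool held most of the level there.

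Per exon length, the transcript of the lipocalin-type synthase outweighed that of the hematopoietic synthase in naïve tissue and no longer did so uniformly after injury. The ratio of Ptgds to Hpgds was 232, 239 and 119 in young naïve and 67.9, 325 and 45.2 in middle-aged naïve pools. It was 6.46, 1.78 and 0.805 in young injured and 0.457, 0.462 and 1.57 in middle-aged injured pools. No injured pool of either age reached the lowest naïve value.

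**Figure D2:**
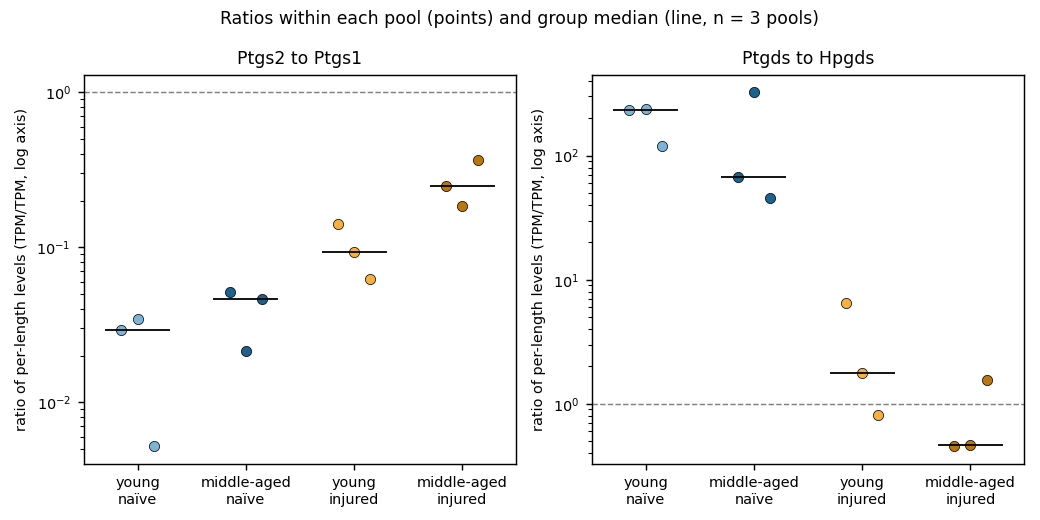
Ratio of per-length levels within each pool (TPM over TPM, log y axis) for Ptgs2 to Ptgs1 (left) and Ptgds to Hpgds (right), by group (x axis). Points are pools, lines are group medians of 3 pools, and the dashed line marks equal levels. The ratio of Ptgs2 to Ptgs1 stays below 1 in every pool, while that of Ptgds to Hpgds goes from at least 45.2 in naïve pools to between 0.457 and 6.46 in injured pools.

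Ptges, the inducible synthase of prostaglandin E2, rose at both ages. Its counts were 39, 92 and 53 in young naïve, 32, 62 and 88 in middle-aged naïve, 227, 152 and 129 in young injured and 198, 202 and 325 in middle-aged injured pools. The level went from 5.86 ± 2.40 to 12.7 ± 3.57 CPM in young mice (2.17-fold, log2 fold change 1.12 ± 0.36, adjusted p = 0.0171) and from 5.54 ± 2.15 to 20.2 ± 6.80 CPM in middle-aged mice (3.63-fold, 1.86 ± 0.36, adjusted p = 0.000503). The call in young mice was lost without young naïve replicate 1 (0.85, adjusted p = 0.0788) or young injured replicate 1 (0.88, adjusted p = 0.0816).

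On the leukotriene branch, 5-lipoxygenase and its activating protein rose together. Alox5ap had 28, 50 and 35 counts in young naïve, 68, 49 and 64 in middle-aged naïve, 716, 692 and 711 in young injured and 915, 858 and 740 in middle-aged injured pools. This was a rise of 14.7-fold in young (log2 fold change 3.88 ± 0.20, adjusted p = 1.35e-09) and 12.4-fold in middle-aged mice (3.63 ± 0.19, adjusted p = 1.66e-09). Reads of the antisense partner Gm19719, with 17 to 472 counts per pool, cannot be told apart from those of Alox5ap in the stretch they share. Alox5 itself was far lower, with 7, 9 and 17 counts in young naïve, 19, 10 and 20 in middle-aged naïve, 98, 83 and 98 in young injured and 89, 147 and 102 in middle-aged injured pools. It rose 6.48-fold in young (2.70 ± 0.37, adjusted p = 2.20e-05) and 6.17-fold in middle-aged mice (2.63 ± 0.35, adjusted p = 1.60e-05).

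Alox15 and Ltc4s stayed near the floor in all groups. Alox15 had 2, 0 and 0 counts in young naïve, 0, 2 and 0 in middle-aged naïve, 9, 8 and 5 in young injured and 8, 13 and 13 in middle-aged injured pools. Summed over pools, this was 2 against 22 counts in young mice, a ratio of rates of 9.92 with an exact 95% counting interval of 2.44 to 87.0, and 2 against 34 counts in middle-aged mice (16.4, interval 4.21 to 141). Ltc4s had at most 1 count in a naïve pool, 4, 4 and 5 counts in young injured and 3, 4 and 8 in middle-aged injured pools. Its ratio was 5.86 (interval 1.33 to 53.5) in young and 14.5 (interval 2.23 to 611) in middle-aged mice. These intervals cover counting error only, and reads of the antisense gene Gm26542 (1 to 10 counts per pool) cannot be told apart from those of Ltc4s. With no filter on low counts, edgeR called Alox15 at both ages (adjusted p = 0.0319 in the young and 0.00374 in the middle-aged comparison). With the filter kept and 1 pool left out, Alox15 passed it in 10 of 12 cases. It was then called in all 10 in middle-aged mice (log2 fold change 3.09 to 6.49), but in young mice the call was absent in 4, without young naïve replicate 2 (2.39, adjusted p = 0.0872) or 3 (2.47, adjusted p = 0.0726) and without young injured replicate 1 (2.78, adjusted p = 0.0632) or 2 (2.84, adjusted p = 0.0565). The young value was 5.72 without young naïve replicate 1. With no filter, Ltc4s had adjusted p = 0.200 in young and 0.0385 in middle-aged mice.

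**Figure D3:**
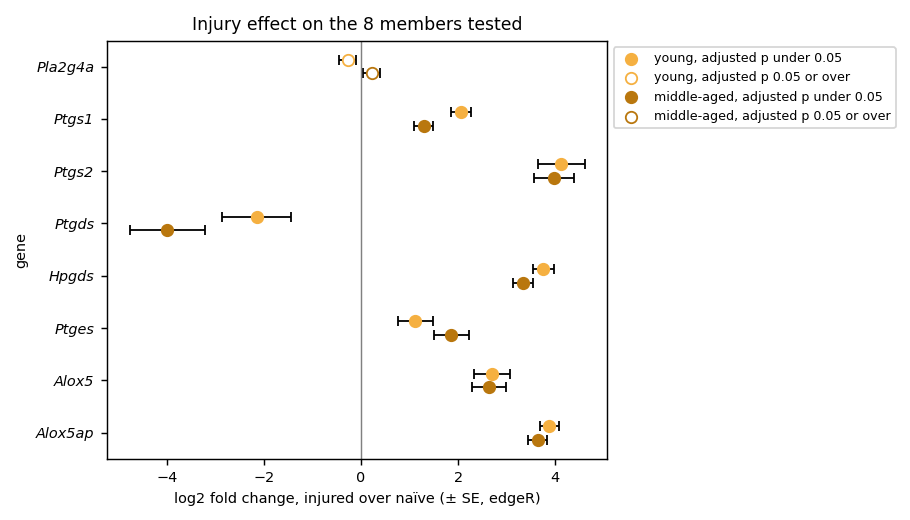
Log2 fold change of injured over naïve pools (x axis, ± SE, edgeR, n = 3 pools a group) for the 8 members tested (y axis), in young and middle-aged mice. Filled points have an adjusted p under 0.05 and open points do not. Ptgs2, Hpgds and Alox5ap lie above 3 at both ages, Ptgds lies at -2.15 and -3.99, and Pla2g4a lies on either side of 0.

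Per exon length the order of the transcripts differed between naïve and injured tissue. Ptgds led in naïve tissue, at 851 ± 83.6 TPM, the count per exon base scaled to a fixed sum, in young and 852 ± 729 TPM in middle-aged pools. Pla2g4a came next in both (40.9 ± 12.7 and 27.3 ± 1.15 TPM), and Ptgs1 after it at 13.5 ± 1.21 and 21.4 ± 6.17 TPM. The pools of Pla2g4a and Ptgs1 overlapped in middle-aged but not in young naïve mice. In middle-aged injured tissue Alox5ap led at 159 ± 15.1 TPM, followed by Hpgds (74.2 ± 5.19 TPM), Ptgds (59.4 ± 41.6 TPM) and Ptgs1 (56.0 ± 12.2 TPM), of which the neighbours Hpgds and Ptgds, and Ptgds and Ptgs1, overlapped in range. In young injured tissue Ptgds (209 ± 214 TPM) overlapped with Alox5ap (132 ± 4.41 TPM), and Hpgds (69.2 ± 3.91 TPM) with Ptgs1 (61.4 ± 7.58 TPM). Ptges, Ptgs2 and Alox5 followed below Pla2g4a in both injured groups, between 6.03 ± 0.629 TPM for Alox5 and 11.4 ± 3.22 TPM for Ptges in young, and between 7.40 ± 1.90 and 16.7 ± 5.29 TPM in middle-aged mice. Alox15 and Ltc4s were lowest in all groups, at 1.34 ± 0.733 TPM or less.

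Age was compared in naïve and in injured tissue, and edgeR called 0 of the 8 members in either. Over all genes tested, 3.80% were called between the ages in naïve and 1.15% in injured tissue. At an unadjusted p under 0.05, 5 members passed in naïve and 3 in injured tissue, and DESeq2 called 1 member in each, Ptgs1 in naïve and Ptgs2 in injured tissue. Shares of all genes at an unadjusted p under 0.05 or by DESeq2 are not given here or below. Such counts, of members or markers, therefore cannot be set against all genes. In naïve tissue, the middle-aged level was 1.68-fold that of young mice for Ptgs1 (log2 fold change 0.75 ± 0.20, adjusted p = 0.0544 by edgeR and 0.0126 by DESeq2). It was 2.82-fold for Ptgs2 (1.50 ± 0.56, adjusted p = 0.166), which rests on 1 to 23 counts per pool. Alox5ap and Hpgds each had a log2 fold change of 0.63 (adjusted p = 0.112 and 0.122), and Pla2g4a had one of -0.50 (adjusted p = 0.140). Leaving out 1 pool brought a call for Ptgs1 (without middle-aged naïve replicate 1, 0.96, adjusted p = 0.00807), Hpgds (without young naïve replicate 3, 0.97, adjusted p = 0.0104) and Pla2g4a (without young naïve replicate 1, -0.71, adjusted p = 0.0122). Beside these values, 5 of the 8 pan-myeloid markers were called higher in middle-aged naïve pools, with a median log2 fold change of 0.93, as were 3 of 6 homeostatic microglia markers (median 0.81), while 2 of 5 oligodendrocyte markers were called lower (median -0.50). Their part in the levels of the members was not tested.

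In injured tissue, the smallest p by age among the members was that of Ptgs2. All 3 middle-aged pools (18.1, 17.6 and 24.6 CPM) lay above all 3 young pools (11.8, 6.59 and 5.27 CPM), a mean of 20.1 ± 3.89 against 7.89 ± 3.46 CPM. The log2 fold change was 1.35 ± 0.34, a 2.54-fold difference, and missed the threshold of edgeR (adjusted p = 0.0832). It was called with DESeq2 (1.36, adjusted p = 0.00830), when the model held the injured pools alone (1.34, adjusted p = 0.0118), without middle-aged naïve replicate 2 (1.35, adjusted p = 0.0289) and without young injured replicate 1 (1.77, adjusted p = 0.0482). In all, 2 of 12 omissions of 1 pool and 3 of 8 other alternatives called it. Over the omissions the log2 fold change of Ptgs2 ran from 1.14 to 1.77, and the adjusted p of edgeR reached 0.385. Of the pan-myeloid markers edgeR called 0 of 8 by age in injured tissue (2 at an unadjusted p under 0.05), with a median log2 fold change of 0.17. Of the monocyte and recruited macrophage markers it called 0 of 6, with a median of 0.88 and 4 at an unadjusted p under 0.05. Lower in middle-aged injured pools were 4 of 5 oligodendrocyte markers (median -0.81) and 3 of 5 meningeal fibroblast markers tested (median -1.46), and the part of these cells in the values of the members was not tested. Alox5ap (0.38 ± 0.16, adjusted p = 0.417), Hpgds (0.22 ± 0.18, adjusted p = 0.893) and Alox5 (0.41 ± 0.31, adjusted p = 0.836) had middle-aged pools all above the young pools in CPM, but none passed the threshold. For Alox5 the nearest pools were 7.388 CPM in middle-aged and 7.380 CPM in young mice. Per exon length the pools of Alox5 and of Hpgds overlapped between the ages. Ptgds had -1.69 ± 0.72 (adjusted p = 0.429) and Ptges 0.67 ± 0.34 (adjusted p = 0.601), both with overlapping pools. The value of Ptgds was -0.44 without young injured replicate 1 and -2.45 without middle-aged injured replicate 3. Ptgs1 (-0.02 ± 0.19) and Pla2g4a (0.00 ± 0.17) were closest to no difference.

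The difference between the injury effects of the ages was tested directly, and 0 of 8 members were called, against 0.139% of all genes tested. DESeq2 also called 0 members, and at an unadjusted p under 0.05 Ptgs1 passed, whose rise was smaller in middle-aged mice by -0.77 ± 0.28 on the log2 scale (adjusted p = 0.344). The difference was -1.84 ± 0.98 for Ptgds (adjusted p = 0.587), and leaving out 1 pool moved it to between -2.60 (without middle-aged injured replicate 3) and -0.59 (without young injured replicate 1), with -0.73 without middle-aged naïve replicate 2. It was 0.74 ± 0.51 for Ptges (adjusted p = 0.689) and 0.50 ± 0.25 for Pla2g4a (adjusted p = 0.541), whose injury effect was below 0 in young and above 0 in middle-aged mice. It was -0.15 ± 0.59 for Ptgs2, -0.41 ± 0.28 for Hpgds, -0.25 ± 0.26 for Alox5ap and -0.07 ± 0.48 for Alox5, each with an adjusted p of 0.686 or more.

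A further 62 genes of the pathway were listed by role, of which 44 passed the filter. Those given below as called at 1 age only were named after their values were seen. In young mice 16 rose and 14 fell, and in middle-aged mice 16 rose and 16 fell, with medians of 0.14 and 0.19 on the log2 scale, close to those of all genes. For these and the shorter lists below, the shares over all genes tested were 28.3% higher and 26.3% lower in young mice. In middle-aged mice they were 29.2% and 29.3%. Among 11 other phospholipases and lipases tested, 1 rose and 6 fell in young and 1 rose and 5 fell in middle-aged mice. The riser was Pla2g15, the lysosomal phospholipase A2 (log2 fold change 2.98 ± 0.21 in young and 3.37 ± 0.21 in middle-aged mice). Pla2g16, an adipose-type phospholipase (-2.02 ± 0.14 and -2.69 ± 0.15), Mgll, the monoacylglycerol lipase that yields arachidonic acid from an endocannabinoid in the brain (-1.50 ± 0.15 and -1.22 ± 0.16), and Pla2g7, which degrades platelet-activating factor (-0.51 ± 0.15 and -0.60 ± 0.15), fell. The remaining fallers, named after their values were seen, were Pla2g3 at both ages, Pla2g4e and Pla2g12a in young mice, and Pla2g6 in middle-aged mice. Of these, Pla2g4e passed the filter only through its naïve pools, so the filter favoured a call of a fall.

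Of 5 genes that activate arachidonic acid or put it back into membranes, Acsl4, a ligase with preference for arachidonic acid (0.84 ± 0.12 and 1.72 ± 0.12), and Lpcat3 (0.86 ± 0.17 and 1.39 ± 0.17) rose and the long-chain ligase Acsl3 fell (-2.02 ± 0.15 and -2.14 ± 0.15). Lpcat2 was also called lower in middle-aged mice (-0.53 ± 0.18). Of 7 other prostanoid synthases, Tbxas1, which makes thromboxane A2, rose most, from 30 to 53 counts per young naïve pool to 811 to 938 counts (3.97 ± 0.25 in young and 3.62 ± 0.24 in middle-aged mice). Akr1b3, an aldose reductase with prostaglandin F synthase activity, also rose (1.19 ± 0.17 and 1.17 ± 0.17). Fam213b, a further prostaglandin F synthase (-1.34 ± 0.24 and -1.97 ± 0.24), and Ptges2, the second membrane-bound prostaglandin E synthase (-0.89 ± 0.22 and -0.88 ± 0.22), fell, and Cbr1, a carbonyl reductase, was called lower in middle-aged mice (-0.57 ± 0.22).

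Of 6 other lipoxygenases and leukotriene enzymes tested, Dpep2, a dipeptidase that turns leukotriene D4 into E4, went from at most 2 counts in a naïve pool to 64 to 85 counts in young and 108 to 135 counts in middle-aged injured pools (adjusted p = 7.54e-07 and 1.90e-07). Mgst3, a microsomal glutathione transferase (-1.56 ± 0.16 and -1.52 ± 0.16), and Alox8 (-1.88 ± 0.38 and -2.88 ± 0.42) fell. Lta4h, which makes leukotriene B4, was called higher (0.48 ± 0.15) and Ggt1 lower (-1.89 ± 0.66) in young mice, and Ggt5 lower in middle-aged mice (-1.21 ± 0.26). Ggt1 passed the filter only through its naïve pools, so the filter favoured a call of a fall. Genes of export, uptake and breakdown rose in 4 and fell in 2 of 8 at both ages. Cyp4f18, which inactivates leukotriene B4, had 1 to 4 counts in naïve pools and 67 to 148 counts in injured pools (adjusted p = 2.57e-07 in young and 2.24e-07 in middle-aged mice), and the prostaglandin transporter Slco2a1 rose as well (4.20 ± 0.76 and 3.52 ± 0.65). Dpep2, Cyp4f18 and Slco2a1 passed the filter only through their injured pools, so the filter favoured a call of a rise. The reductases Ptgr2 (-0.58 ± 0.14 and -0.64 ± 0.15) and Zadh2 (-0.64 ± 0.15 and -0.65 ± 0.15) fell. Hpgd, the dehydrogenase that starts the inactivation of prostaglandins (1.35 ± 0.14 and 1.36 ± 0.14), and Ptgr1 (3.11 ± 0.21 and 3.15 ± 0.21) are the other risers of this list and were named after their values were seen.

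Of 6 prostanoid receptors tested, 4 rose in young mice, and 5 rose and 1 fell in middle-aged mice. Ptger2, a receptor of prostaglandin E2, had 0 to 6 counts in naïve pools, 48 to 75 counts in young injured and 83 to 101 counts in middle-aged injured pools (adjusted p = 2.63e-05 and 9.03e-07). Ptger4, a receptor of the same ligand, rose by 2.37 ± 0.24 and 2.73 ± 0.25 on the log2 scale, Ptger1 by 1.05 ± 0.21 and 0.54 ± 0.21, and the prostacyclin receptor Ptgir had 0 to 10 counts in naïve and 66 to 109 counts in injured pools (adjusted p = 2.02e-05 and 5.78e-05). Ptger2 and Ptgir passed the filter only through their injured pools, so the filter favoured a call of a rise. In middle-aged mice Ptgdr2, a receptor of prostaglandin D2, was also called higher (2.19 ± 0.68). Its counts there were 3 to 5 in naïve and 15 to 23 in injured pools. In young mice it was not called (adjusted p = 0.372), with 1 to 20 counts in naïve and 22 to 25 in injured pools. Ptgdr2 also passed the filter only through its injured pools. Ptgfr, the receptor of prostaglandin F2 alpha, was called lower in middle-aged mice (-1.77 ± 0.57). Of 4 leukotriene receptors only Cysltr1, for the cysteinyl leukotrienes, passed the filter, and it rose by 3.23 ± 0.45 and 3.91 ± 0.46. Ltb4r2 had 0 counts in all pools.

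Between the ages, 4 of these 44 genes were called in naïve tissue and 2 in injured tissue. Over all genes tested, the share called was 3.80% in naïve and 1.15% in injured tissue. Mgll was lower in middle-aged mice in both (-1.16 ± 0.15, adjusted p = 0.00108, and -0.88 ± 0.15, adjusted p = 0.0121), as was Acsl3 (-0.67 ± 0.14, adjusted p = 0.0192, and -0.78 ± 0.15, adjusted p = 0.0184). Acsl4 was lower (-0.49 ± 0.12, adjusted p = 0.0360) and Fam213b higher (0.89 ± 0.23, adjusted p = 0.0477) in middle-aged naïve mice. The injury effect was called as different between the ages for 0 of the 44 genes by edgeR and for 1 by DESeq2 (Acsl4, which had 0.88 ± 0.17 and adjusted p = 0.0556 by edgeR), and 6 had an unadjusted p under 0.05. The shares of all genes by DESeq2 and at that unadjusted threshold are not given.

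**Figure D4:**
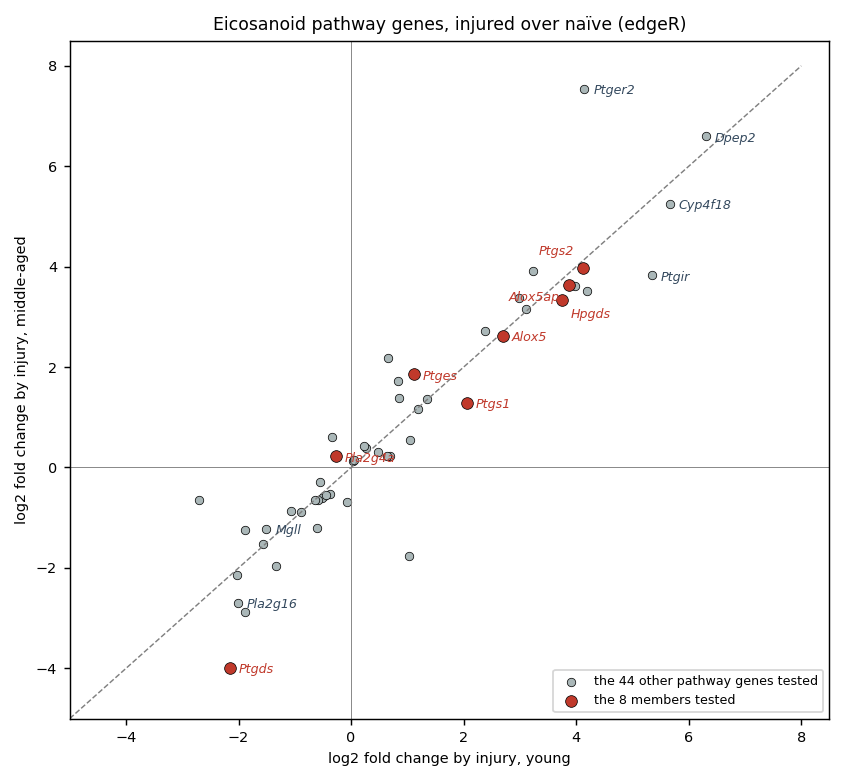
Log2 fold change by injury in young (x axis) against middle-aged mice (y axis) for the 8 members tested (red) and the 44 other pathway genes tested (grey), with equality as the dashed line. Among the members Ptgds is farthest below 0 on both axes (-2.15 and -3.99). The largest fitted values are those of Dpep2 in young (6.30) and Ptger2 in middle-aged mice (7.55), both with few counts in naïve pools.

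Beside the rises among the members, 6 monocyte and recruited macrophage markers (Ccr2, Ly6c2, Plac8, Chil3, Ms4a7 and Cd5l) were summed. Their summed level was at most 0.323 CPM in young naïve and 2.78 CPM in middle-aged naïve pools. It was between 223 and 267 CPM in young injured and between 233 and 357 CPM in middle-aged injured pools. All 6 were called higher at both ages, but they passed the filter only through their injured pools, so the filter favoured such a call. In the young naïve pools 4 of them (Ccr2, Plac8, Chil3 and Cd5l) had 0 counts throughout. The 6 homeostatic microglia markers (such as P2ry12 and Tmem119) summed to 166 to 218 CPM in young naïve, 246 to 396 CPM in middle-aged naïve, 440 to 479 CPM in young injured and 350 to 420 CPM in middle-aged injured pools. Of these, 3 rose and 1 fell in young mice (median log2 fold change 1.12) and 2 rose and 2 fell in middle-aged mice (median -0.13), where P2ry12 had -0.24 ± 0.18 and Tmem119 -0.02 ± 0.38. The log2 fold changes of the pan-myeloid markers ran from 2.08 (Csf1r) to 6.90 (Cd68) in young mice and between 1.84 and 5.50 at middle age, with medians of 4.11 and 3.46. Beside these, the risers among the members ran from 1.12 (Ptges) to 4.12 (Ptgs2) in young mice and between 1.29 (Ptgs1) and 3.97 (Ptgs2) at middle age. Neutrophil markers summed to at most 0.384 CPM in naïve and to 1.05 to 3.07 CPM in injured pools, and S100a8, with 0 counts in all naïve and 10 to 23 in injured pools, was called higher at both ages (adjusted p = 0.000294 and 0.000239). Eosinophil markers summed to at most 1.15 CPM in naïve and to 0.863 to 2.20 CPM in injured pools. Of these, Siglecf was called higher in young mice (2.73 ± 0.78, adjusted p = 0.00835) and had 0.82 ± 0.72 (adjusted p = 0.341) in middle-aged mice, and Prg2 had 0 counts in all pools. The summed level of 5 perivascular macrophage markers was at most 6.89 CPM in young naïve and 15.2 CPM in middle-aged naïve pools. It was 244 to 284 CPM in young injured and 276 to 289 CPM in middle-aged injured pools. Of these markers 4 (F13a1, Mrc1, Lyve1 and Cbr2) were called higher at both ages, and Cd163 at neither. Of 4 platelet markers only Pf4 was tested, and it rose at both ages (4.65 ± 0.54 and 3.38 ± 0.46). S100a8, Siglecf, Pf4 and Cbr2 passed the filter only through their injured pools, so the filter favoured a call of a rise. The part of these cells in the rise of the members was not tested.

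The genes whose log2 CPM ran most like that of a member over the 12 pools were sought among 13084 genes, as a description, since the 12 pools share the groups and any gene with a strong injury response correlates with another. For Hpgds these were Nckap1l, Cd84 and Pabpc1 (Pearson r of 0.997 each), and for Alox5ap Mertk, C3ar1 and Zc3hav1 (0.997 each). For these 2 members 1109 and 1217 genes had an r of at least 0.95. Alox5 was most like Zfand6, Bms1 and Galnt7 (0.990, 0.989 and 0.988), Ptgs1 most like Mybbp1a, C5ar2 and Myc (0.991, 0.986 and 0.985), and Ptgs2 most like Hspb1, Kctd10 and Pole4 (0.990, 0.985 and 0.982). Ptgds (Tmtc4, Hlf and Arpp19, at 0.971, 0.954 and 0.946) and Ptges (Cul4b, Rras and Dnajc14, at 0.960, 0.955 and 0.939) had 2 genes each at 0.95 or more. Pla2g4a had none, and its nearest were Ppp1r15b, Slc9a3r1 and Znrf3 (0.878, 0.844 and 0.841).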

How the data were processed

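The authors checked reads with FastQC 0.11.4, mapped them to GRCm38 with TopHat2 2.0.10 and Bowtie 1.1.2, and deposited raw counts of reads per gene from featureCounts. The annotation release, the strand setting and the handling of shared reads are not given in the sources used here. Groups and replicate numbers come from the sample labels. Libraries were amplified, so that reads are not independent molecules. The p-values measure the spread between pools of 5 mice.

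The counts were fitted in R 4.3.3 with edgeR 4.0.16 (TMM, filterByExpr, glmQLFit, glmQLFTest), as a model of group means without covariates. Standard errors were derived from the fold change and the square root of F. Per-length levels used exon lengths of GENCODE, and log2 CPM a prior count of 2. Promoters come from RefSeq.

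The members and lists were chosen with earlier results of these data known. All 10 members were named, and of each other list up to 4 genes: the 2 highest and 2 lowest by mean log2 fold change among those called at both ages, and any called for age. Further genes of these lists that were called, and the cell type markers named, were chosen after their values were seen. For each member tested, 3 genes of highest Pearson r were named. Intervals are exact, at 95%. Alternatives were DESeq2 1.42.0, other scalings and filters, only the pools compared, a replicate block and each pool left out. The scripts were tested on simulated counts with known changes. The other experiments of the study were not analysed here. One marker gene of the oligodendrocyte list is not reported here.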

Additional observations from a re-analysis of the deposited data

How the results depend on the processing

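The direction and call of the 8 members after injury held with DESeq2, the other scalings and filters, only the pools compared and the replicate block at both ages. Scaling by library totals alone moved the median of all genes by 0.20 in young and 0.11 in middle-aged mice after injury. With 1 pool left out, 6 to 8 members were called after injury in young and 7 to 8 in middle-aged mice, 0 to 1 between the ages in naïve and in injured tissue, and 0 for the difference of injury effects. The same ranges for the other pathway genes were 27 to 31, 28 to 32, 2 to 4, 0 to 2 and 0 to 1. The calls between the ages were the ones that moved. In naïve tissue 1 member was called with library totals or DESeq2 and 2 with no filter (Ptgs1 and Hpgds), and only the pools compared left 1 other pathway gene. In injured tissue 2 members were called with no filter (Ptgs2 and Ptgds), 1 with DESeq2 and 2 with only the pools compared (Ptgs2 and Alox5ap), where 4 other pathway genes were called. For the difference of injury effects, no filter called 1 member (Ptgds, adjusted p = 0.0273) and 2 other pathway genes, and upper-quartile factors and DESeq2 each called 1 other pathway gene. The cause was not tested. Shares of all genes called under the alternatives are not given, so these counts of calls cannot be set against all genes.

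Signs turned only for differences close to 0 or with wide spread. Pla2g4a by age in injured tissue became 0.0133 with size factors of DESeq2 or with DESeq2, 0.00033 with a CPM filter and 0.0028 with the replicate block, and ran from -0.019 to 0.037 on leaving out a pool. Leaving out 1 pool gave Ptgs1 in the same comparison -0.19 to 0.099 and, by age in naïve tissue, Ptgds -0.97 (without middle-aged naïve replicate 2) to 0.52 and Ptges -0.34 to 0.27. It gave the difference of injury effects of Ptgs2 -0.51 to 0.27 and that of Alox5 -0.62 to 0.21. The replicate numbers do not pair the pools: deviations of same-numbered pools correlated between -0.113 and 0.153, and each pool holds other mice. The replicate block changed no call of a member, with 7 members called after injury at both ages. A floor of 3 counts limits what can be said of Alox15 and Ltc4s.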
